A study of Mus musculus with 4 samples.

Results

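Gene expression in the mouse brain at embryonic day 17.5 was compared between a pair made of the cerebellum and the superior colliculus and a pair made of the olfactory bulb and the pontine nucleus. The embryos were of the ICR stock, with no mutation or treatment named. Each region was represented by 1 Affymetrix array of total RNA, pooled from 13 mice for the cerebellum, 16 for the superior colliculus, 14 for the olfactory bulb and 15 for the pontine nucleus. All 4 arrays of the series were used. Values are log2 signals, so that a difference of 1 is a 2-fold difference. A gene separated the sides when the lower of one pair lay above the higher of the other, and the distance between those nearest levels is called the gap. These measured levels therefore chose the genes described here. Of 19938 genes, 5387 separated the sides by some distance. Among the 10908 genes whose highest level exceeded 8.56, the median of all gene levels, 2559 did so, and 30 had a gap of at least 1.

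The regions of a pair are different tissues and not replicates of a condition, and there was no second array of any region. No SD, interval or p-value could be given, and a difference between regions cannot be told apart from one between single pooled preparations. In tissue arrays, fewer cells of a type and less RNA per cell cannot be told apart either.

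The cerebellum and the superior colliculus both form from the dorsal neural tube, on either side of the isthmus, the boundary between midbrain and hindbrain that releases fibroblast growth factors. The olfactory bulb grows out of the forebrain, and neurons of the pontine nucleus migrate ventrally from the caudal rhombic lip of the hindbrain. Both the cerebellum and the colliculus build large populations of GABAergic neurons near their place of birth. AP-2 proteins, encoded by Tfap2 genes, are transcription factors that bind GC-rich sites as dimers and are known from GABAergic lineages of the developing cerebellum. Cdh9 encodes a type II cadherin, a homophilic adhesion molecule, and Cntn2 a contactin anchored in the membrane of growing axons.

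The promoters of 5 of the genes that the comparison turns on are shown because they include its marker genes Tfap2b, Cdh9 and Cntn2 and the factors Tfap2a and Otx2. Each runs 5′ to 3′ on the gene's strand from 250 bases before to 50 after a RefSeq transcript start, in the build GRCm38.p6. Capitals mark the letters TAATTA, read by many homeodomain proteins, and the E-box CAGCTG, read by basic helix-loop-helix factors.
Tfap2b promoter, chr1:19211804-19212103, plus strand: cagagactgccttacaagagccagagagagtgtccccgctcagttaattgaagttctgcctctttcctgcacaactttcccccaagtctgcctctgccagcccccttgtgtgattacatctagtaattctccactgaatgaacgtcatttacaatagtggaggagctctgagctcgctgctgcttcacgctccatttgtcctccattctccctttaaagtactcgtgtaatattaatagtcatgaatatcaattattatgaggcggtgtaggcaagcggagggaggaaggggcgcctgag
Tfap2a promoter, chr13:40734871-40735170, minus strand: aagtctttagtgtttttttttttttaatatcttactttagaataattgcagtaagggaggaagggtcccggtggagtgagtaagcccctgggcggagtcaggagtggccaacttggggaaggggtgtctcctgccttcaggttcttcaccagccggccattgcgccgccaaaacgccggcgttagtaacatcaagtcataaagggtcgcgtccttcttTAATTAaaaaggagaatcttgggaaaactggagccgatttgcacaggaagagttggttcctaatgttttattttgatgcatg
Otx2 promoter, chr14:48665060-48665359, minus strand: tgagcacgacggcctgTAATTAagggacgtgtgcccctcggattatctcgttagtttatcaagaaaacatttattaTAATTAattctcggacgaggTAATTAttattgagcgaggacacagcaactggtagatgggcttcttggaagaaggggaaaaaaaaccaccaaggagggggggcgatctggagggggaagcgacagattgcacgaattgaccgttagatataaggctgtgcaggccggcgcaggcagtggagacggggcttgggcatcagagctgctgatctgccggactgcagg
Cdh9 promoter, chr15:16728665-16728964, plus strand: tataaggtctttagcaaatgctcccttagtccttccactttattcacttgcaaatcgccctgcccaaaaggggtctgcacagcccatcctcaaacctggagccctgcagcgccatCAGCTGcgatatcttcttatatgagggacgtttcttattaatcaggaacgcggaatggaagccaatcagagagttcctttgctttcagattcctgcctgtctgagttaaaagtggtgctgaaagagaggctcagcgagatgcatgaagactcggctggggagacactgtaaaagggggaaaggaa
Cntn2 promoter, chr1:132542891-132543190, minus strand: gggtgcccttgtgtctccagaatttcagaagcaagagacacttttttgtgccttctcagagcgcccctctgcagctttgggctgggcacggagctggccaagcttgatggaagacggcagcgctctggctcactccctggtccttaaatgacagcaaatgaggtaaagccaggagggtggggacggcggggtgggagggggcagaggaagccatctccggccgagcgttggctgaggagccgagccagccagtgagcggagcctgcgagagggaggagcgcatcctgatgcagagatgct
Tfap2a had 2 such windows in the RefSeq table and Otx2 had 4, of which the ones holding TAATTA in the largest number are printed. The windows of Tfap2b and Cntn2 held neither of these motifs.

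Separation at small gaps was frequent and ran in both directions. Above the level limit, 930 genes (8.53%) were higher by any gap in the cerebellum and colliculus, and 1629 (14.9%) were lower. Without the limit, the counts were 3124 higher (15.7%) and 2263 lower (11.4%), so the direction that held more genes depended on which levels were included. When all genes were put into 4 groups of about equal size by their maximum level, the group with the lowest levels held 1217 higher and 363 lower genes, and the group with the highest held 344 higher and 747 lower. The median gap was only 0.10 for the higher genes and 0.07 for the lower ones. After quantile normalization the counts at any gap above the limit were 1179 and 1274, so that 48.1% of separating genes were higher against 36.3% as deposited. Beyond small gaps the order was the opposite. A gap of at least 0.5 was reached by 102 higher genes (0.935%) and 39 lower genes (0.358%), and a gap of at least 1 by 24 higher genes (0.22%) and 6 lower genes (0.055%). At 2 log2 units, a 4-fold distance, 4 higher genes and 0 lower genes were left. These shares are those of all genes compared, and the rule that chose the genes used the same arrays.

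The same rule applied to the other ways of pairing the regions gave larger counts. The cerebellum and bulb against the pontine nucleus and colliculus separated 43.9% of genes above the limit by any gap, and 100 by at least 1. For the cerebellum and pontine nucleus against the bulb and colliculus these values were 29.4% and 62, against 23.5% and 30 here. All 3 pairings use the same 4 arrays, and the difference between their counts was not tested. Between single arrays, the correlation of levels across the compared genes was 0.904 for the cerebellum with the colliculus. It was 0.869 for the bulb with the pontine nucleus, the lowest of the 6 array pairs. The highest values were across the sides, 0.910 for the cerebellum with the bulb and 0.905 for the colliculus with the pontine nucleus. Genes are not independent replicates, and these values describe the arrays only.

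The genes taken as markers of each region had their highest level there, and some of them are given here. The cerebellar array held En2 and Atoh1 at 11.47 and 10.70, against at most 7.44 and 7.70 elsewhere. Pou4f1 and Gata3, factors of tectal neurons, read 10.27 and 10.80 in the colliculus and at most 7.19 and 8.06 elsewhere. Dlx1 and Tbr1 read 12.89 and 12.22 in the bulb and at most 7.84 and 7.98 in the other regions. Hoxa2 and Hoxb3 read 12.41 and 12.14 in the pontine nucleus and at most 7.71 and 8.40 elsewhere. Some markers were also high in other regions. Barhl1 read 12.50 in the pontine nucleus but 11.25 in the cerebellum and 10.84 in the colliculus. Eomes read 12.21 in the bulb and 10.51 in the cerebellum. The 95th percentile of 202 vomeronasal receptor and beta defensin genes, which act in the nose and in host defence, was 7.33. In Lncenc1 and Esrrb among the 30 genes, both low-side levels lay under it.

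The genes higher in the cerebellum and superior colliculus are described by role, beginning with transcription factors. That role was assigned by hand to 10 of the 24 genes with a gap of at least 1, and its share among all genes compared was not counted. Tfap2b (probe set 10345016), which encodes AP-2 beta, read 11.30 in the cerebellum and 12.88 in the colliculus, against 7.53 in the bulb and 6.82 in the pontine nucleus. Its gap of 3.77, or 13.6-fold, was the widest of all genes compared in either direction. Both high regions lay far above both low ones, and the colliculus was the higher of them. Otx2, a homeobox gene of the forebrain and midbrain that is also made by granule cell precursors of the posterior cerebellum, read 10.70 and 11.93 against 8.56 and 7.04. Tfap2a, the gene of AP-2 alpha, read 11.04 in the cerebellum, 9.90 in the colliculus, 7.84 in the bulb and 6.67 in the pontine nucleus. In contrast to Tfap2b it was higher in the cerebellum than in the colliculus. Pax3, a paired box gene of the dorsal neural tube, read 10.59 and 9.75 against 7.12 and 7.75, with a gap of 2.0.

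**Figure D1:**
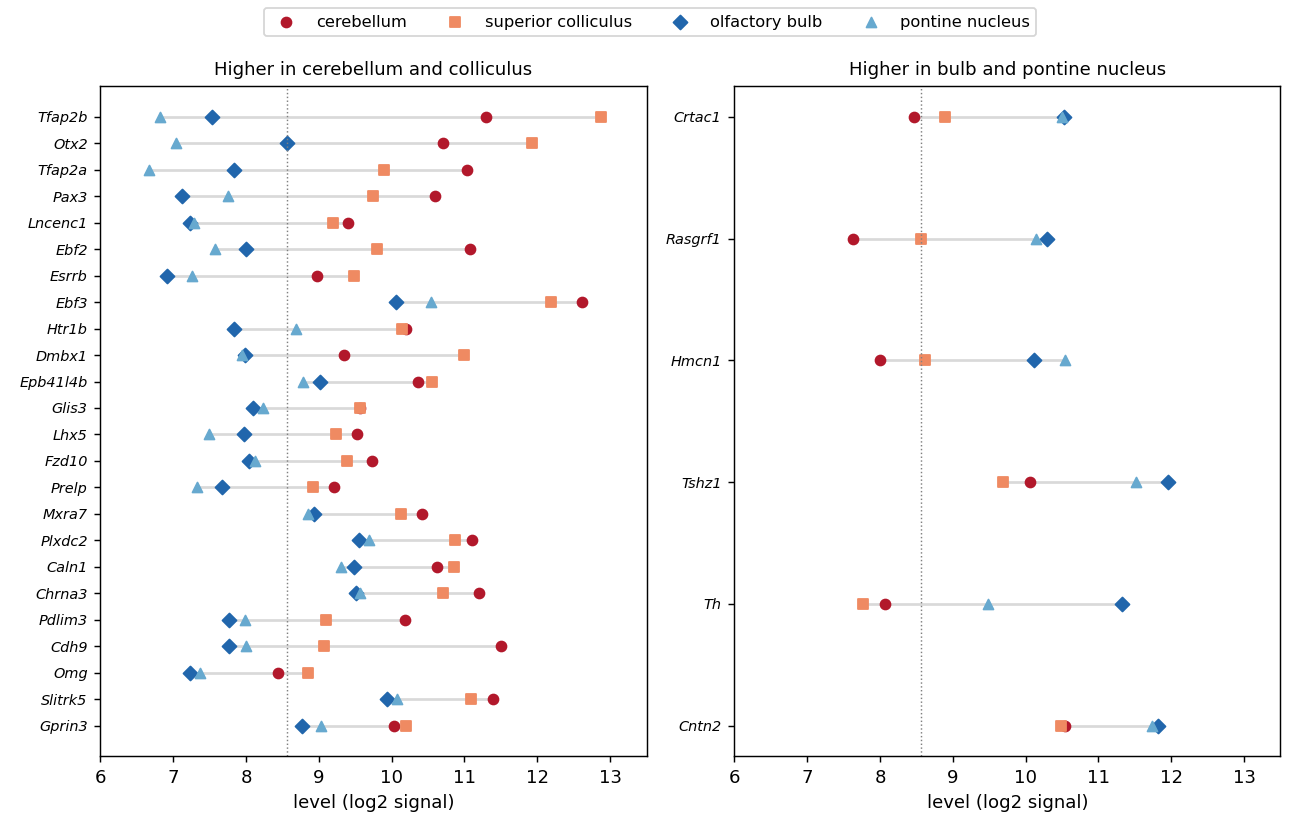
Log2 levels (horizontal axis) of the 30 genes with a gap of at least 1, with 1 point per array and gene; circles are the cerebellum, squares the superior colliculus, diamonds the olfactory bulb and triangles the pontine nucleus. The 24 genes on the left have both reddish points to the right of both blue ones, the 6 on the right the reverse, and the dotted line marks the level limit of 8.56.

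A pair of related helix-loop-helix factors, Ebf2 and Ebf3, followed. Ebf2, a gene of Purkinje cell subsets, read 11.08 in the cerebellum and 9.80 in the colliculus against 8.0 in the bulb and 7.58 in the pontine nucleus. Ebf3 read 12.62 and 12.19 against 10.06 and 10.54, so that it was also far above the level limit on the low side. The gaps were 1.80 and 1.65. Esrrb, an orphan nuclear receptor, had a gap of 1.71, from 8.97 and 9.48 on the high side to 6.92 and 7.26 on the low side. Dmbx1, a homeobox gene of the embryonic midbrain, read 9.34 in the cerebellum and 11.00 in the colliculus against 7.98 and 7.94. Its regions on the high side differed by 1.66, more than its gap of 1.36. The zinc finger gene Glis3 read 9.56 in both the cerebellum and the colliculus, against 8.10 and 8.24. Lhx5, a LIM homeobox gene of inhibitory neuron precursors, read 9.52 and 9.23 against 7.97 and 7.49. In Glis3 and Lhx5 the regions of the high side thus lay within 0.29 of each other.

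Receptors and surface proteins formed the next group. Htr1b, an inhibitory serotonin receptor found on axon terminals, read 10.20 in the cerebellum and 10.14 in the colliculus, against 7.84 in the bulb and 8.68 in the pontine nucleus. Chrna3, a nicotinic acetylcholine receptor subunit, read 11.20 and 10.70 against 9.51 and 9.57. The Wnt receptor gene Fzd10 read 9.73 and 9.38 against 8.04 and 8.12. In all 3 of these genes the high regions differed by at most 0.50. Cdh9 was different. It read 11.50 in the cerebellum and 9.07 in the colliculus, against 7.76 in the bulb and 8.0 in the pontine nucleus, so that the distance of 2.43 within the high side exceeded the gap of 1.07. Slitrk5, a leucine-rich repeat adhesion molecule of synapses, read 11.39 and 11.09 against 9.93 and 10.08. Omg, a membrane-anchored ligand of the Nogo receptor, read 8.44 and 8.85 against 7.23 and 7.37.

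The long noncoding RNA gene Lncenc1 read 9.40 and 9.20 in the cerebellum and colliculus and 7.23 and 7.28 in the bulb and pontine nucleus. Both low levels lay under the 7.33 of the genes of nose and host defence, so its gap of 1.92 can be read only as a lower bound, as can that of Esrrb. Epb41l4b, a membrane cytoskeleton gene, had a gap of 1.34 and Prelp, a small leucine-rich proteoglycan gene, one of 1.25. The remaining genes had gaps from 1.0 to 1.19. They were Mxra7, Plxdc2, the calcium sensor gene Caln1, the actinin-binding protein gene Pdlim3 and the neurite outgrowth gene Gprin3. In 22 of the 24 genes the gap exceeded the differences within both sides, the exceptions being Cdh9 and Dmbx1. Choosing genes by a wide gap favours this count. It was 225 of the 930 genes higher by any gap, and 621 of all 10908 compared. The cerebellum was the higher region of its pair in 15 of the 24 genes, the colliculus in 8, and Glis3 was equal. Over all 10908 genes compared, the cerebellum was the higher in 4639 and the colliculus in 6106. Among the 930 genes higher by any gap these counts were 387 and 517, and the difference was not tested. Just inside the limit of 1 lay Slitrk5 at 1.01 and Gprin3 at 1.0, and just outside it Nr2f2 and Mab21l1, both at 0.98.

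**Figure D2:**
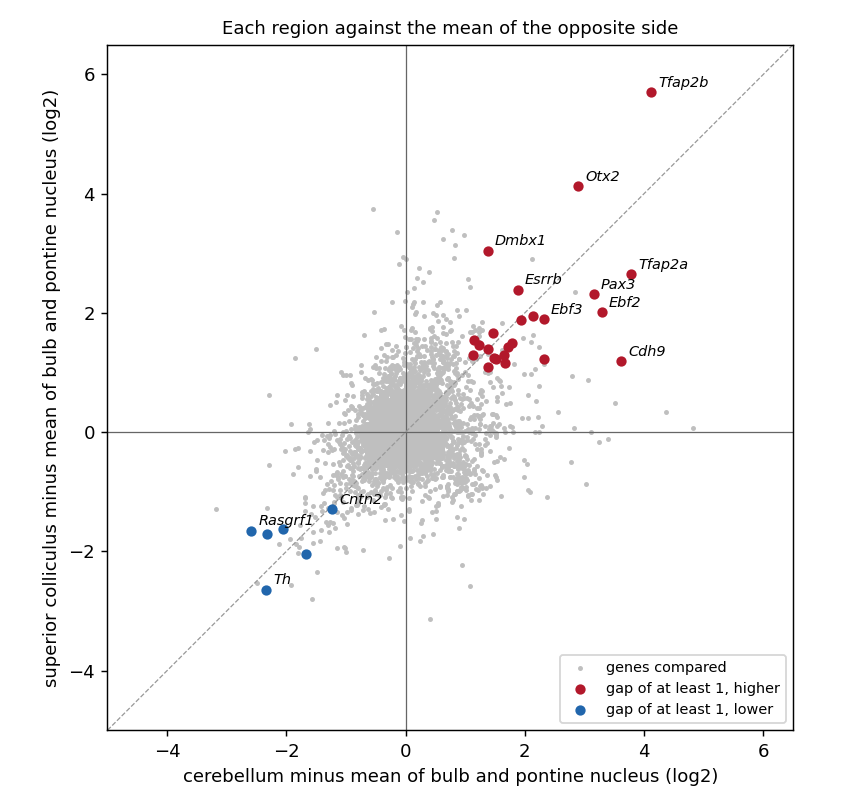
Each of 10908 genes is placed by its cerebellar level (horizontal axis) and its collicular level (vertical axis), both minus the mean of the olfactory bulb and pontine nucleus, in log2 units. Red points are the 24 genes higher and blue points the 6 genes lower by a gap of at least 1, and the dashed line marks equal levels in the cerebellum and colliculus, from which Cdh9 lies far to the right and Tfap2b and Dmbx1 above.

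On the opposite side, 6 genes were higher in both the bulb and the pontine nucleus by at least 1. Crtac1 (probe set 10467749) encodes a secreted protein that binds the Nogo receptor and blocks its signalling. Its levels were 8.46 (cerebellum), 8.89 (colliculus), 10.52 (bulb) and 10.50 (pontine nucleus), a gap of 1.61 or 3.05-fold. Rasgrf1, a Ras exchange factor that is imprinted in mouse brain, read 10.29 and 10.14 against 7.63 and 8.56. Both genes had nearly equal levels on the high side, within 0.15. The zinc finger gene Tshz1 read 11.95 and 11.52 against 10.06 and 9.69. Cntn2 levels were 10.54 (cerebellum), 10.48 (colliculus), 11.82 (bulb) and 11.73 (pontine nucleus). Its regions agreed within 0.09 on each side, and its gap was 1.19. The next gene, the synaptic vesicle gene Sv2b, had a gap of 0.99, from 11.80 and 12.19 to 10.81 and 10.38.

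Hmcn1, which encodes the extracellular matrix protein hemicentin, offered a check within the arrays. Its brightest probe set had levels of 8.0 (cerebellum), 8.62 (colliculus), 10.12 (bulb) and 10.54 (pontine nucleus). The gene was covered by 77 probe sets, and in all 77 both low regions lay below both high ones. Their gaps ranged from 0.28 to 1.58 with a median of 0.94, and 32 reached 1. These probe sets share the same 4 RNA pools, so they are repeated readings of the same pools and say nothing of the variation between animals. None of the other 29 genes had a second singly named probe set.

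Th, the enzyme of the first step of dopamine synthesis, was separated with an uneven high side. Its levels were 8.07 (cerebellum), 7.76 (colliculus), 11.33 (bulb) and 9.48 (pontine nucleus), and the 1.85 between the high regions exceeded the gap of 1.41. Of the 8 genes of catecholamine synthesis and transport, Th alone exceeded the level limit. Slc18a2, the vesicular monoamine transporter, read 8.48 and 8.47 in the bulb and pontine nucleus against 7.79 and 7.70, below the limit. Ddc, Dbh, Pnmt and Gch1 stayed at or below 7.46 on every array, and the transporter genes Slc6a2 and Slc6a3 at or below 8.12. In the 6 lower genes together, the gap exceeded both within-side differences in all but Th. The same held for 396 of the 1629 genes lower by any gap, and choosing genes by a wide gap favours it.

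Families of the separating genes were set out gene by gene. The families were picked after the values had been seen. Over all genes compared, 8.53% were higher and 14.9% lower by any gap. Of the 5 AP-2 genes, only Tfap2a and Tfap2b separated these sides. Tfap2d read 11.68 in the colliculus and 7.39 in the cerebellum, with the bulb between them at 8.82. Tfap2c and Tfap2e had their highest levels in the bulb, at 9.46 and 10.03, against at most 6.96 and 8.18 elsewhere. Among the Ebf genes, Ebf1 did not separate because the pontine nucleus, at 12.50, lay above the colliculus at 11.79. Their partner zinc finger genes Zfp423 and Zfp521 did not separate either.

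Otx1 and Crx, relatives of Otx2, did not separate. Otx1 read 8.98 in the colliculus and 8.72 in the bulb, and Crx stayed at or below 7.28 on every array. Among the Pax genes, Pax7 separated by 0.52 with a wide high side, 8.59 in the cerebellum and 11.21 in the colliculus. Pax2 read 10.23 in the cerebellum and at most 8.06 elsewhere, and Pax6 was lowest in the colliculus at 9.58. Nuclear receptors of the COUP-TF, Ror and Err families regulate neuronal identity and metabolism. Of 8 measured, 6 separated as higher and 0 as lower by any gap, against 8.53% and 14.9% of all genes compared. Among the 6, Rorb did so by 0.37 and Nr2f6 by only 0.11. Nr2f2 read 11.11 and 11.75 against 9.82 and 10.13, Rora 11.18 and 10.36 against 9.41 and 8.47, and Nr2f1 10.16 and 10.59 against 8.39 and 9.37. Esrra and Esrrg overlapped between the sides.

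**Figure D3:**
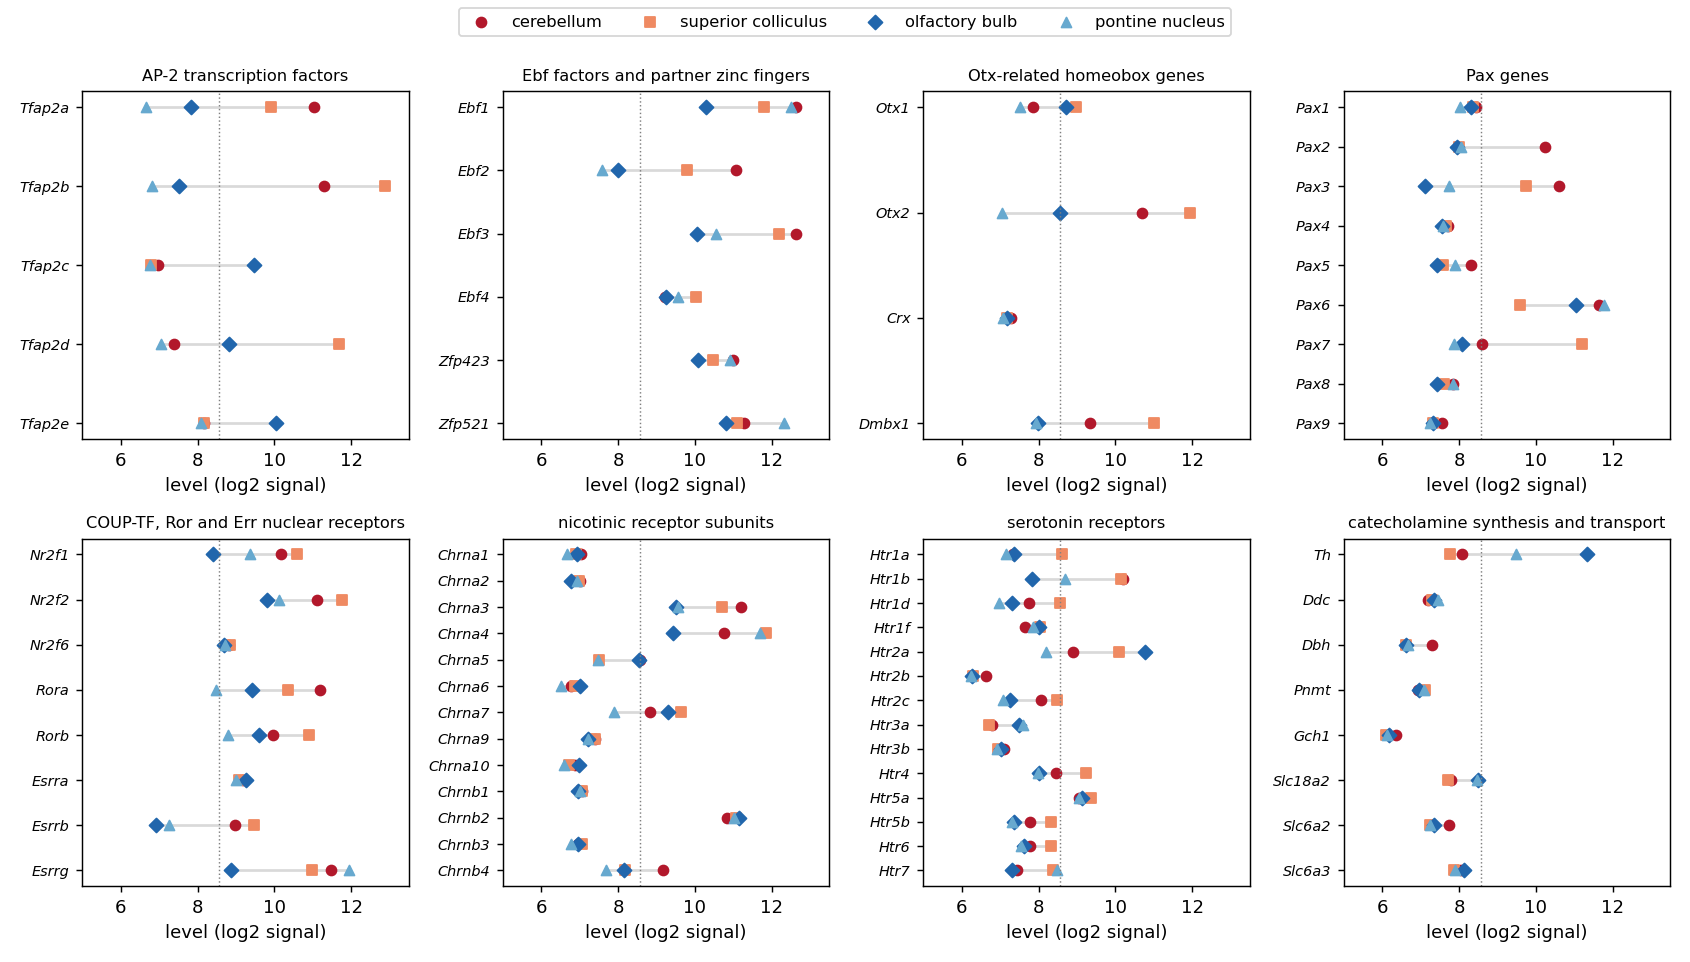
Log2 levels (horizontal axis) of every measured member of 8 gene families, with 1 point per array; circles are the cerebellum, squares the superior colliculus, diamonds the olfactory bulb and triangles the pontine nucleus. In the AP-2 panel both reddish points lie apart from the blue ones for Tfap2a and Tfap2b, whereas Tfap2c and Tfap2e are high in the bulb and Tfap2d in the colliculus; the dotted line marks 8.56.

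Receptors for serotonin and acetylcholine were mixed. Above the level limit, Htr4 and Htr1d separated as higher beside Htr1b, by 0.46 and 0.44. In the cerebellum and colliculus Htr4 read 8.46 and 9.23, and Htr1d 7.74 and 8.57. Below the limit, Htr2c was higher by 0.81 and Htr5b by 0.41, and Htr3a was lower by 0.71. Htr2a overlapped, with its highest level of 10.76 in the bulb. Among nicotinic subunits only Chrna3 passed 1. Chrnb4 separated by 0.04, and Chrna4 was low in the bulb alone, at 9.42 against 10.76 to 11.84. Of the 6 Slitrk genes, Slitrk5 and Slitrk2 separated, the latter by 0.21. Rasgrf2 went the other way from Rasgrf1, with its highest level of 9.95 in the colliculus, and overlapped between the sides. Sv2c separated as higher by 0.59 while Sv2b lay 0.99 lower.

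Lists of genes, chosen with earlier results of these data known, were described by how many members separated. Over all 10908 genes the median difference between the side means was -0.03, and the shares to read each count against were 8.53% higher and 14.9% lower by any gap and 0.935% and 0.358% by at least 0.5. The list of transcription factors of GABAergic lineages had 20 members above the limit, of which 11 were higher by any gap, 8 by at least 0.5 and 5 by at least 1, with 0 lower. Its median difference between side means was 1.49, and 1.16 over all 24 measured members. The 5 were Tfap2b, Tfap2a, Esrrb, Dmbx1 and Lhx5. The list left out Dlx1, Dlx2, Dlx5 and Sp8, forebrain interneuron factors with their highest levels in the bulb. Their side means differed by -2.515, -1.63, -1.765 and -1.665, though none of them separated the sides. The median of the list therefore does not cover these factors of the bulb. The forkhead gene Foxp2 separated by 0.87, with 12.09 and 11.61 against 10.74 and 7.77, and Sox14 by 0.95. Of 20 genes of GABA and glycine transmission, 2 were higher (10%) and 3 lower (15%), shares near those of all genes, and the median difference was 0.20. Gabrg1, a GABA-A receptor subunit, was lower by 0.62 and Gabra2 by 0.47, while Slc6a9 was higher by 0.08 and Gabrb2 by 0.03.

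The list of tectal and dorsal midbrain genes had 21 members above the limit, with 9 higher, 0 lower and a median of 1.24. Over all 23 measured the median was 0.83. Their mean level was 10.64 in the colliculus, 9.42 in the cerebellum, 9.02 in the bulb and 9.32 in the pontine nucleus. The cerebellum thus lay nearer to the pontine nucleus than to the colliculus. Pax3 led the list, followed by Mab21l1 at 11.50 and 11.27 against 9.49 and 10.29, by Irx3 with a gap of 0.83 and by Zfhx3 with 0.80. Midbrain-hindbrain boundary genes behaved unevenly. Of 19, 5 were higher and 1 lower, but only Otx2 did so by more than 0.23. En2 separated by 0.18 because it was high in the cerebellum alone, at 11.47 against 7.44 in the colliculus. En1 separated by 0.01 in the same way, at 9.04 against 7.70. Fgf8 lay between 8.54 and 8.94 on all 4 arrays.

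Genes of cell division showed no separation. Of 31, 0 were higher and 0 lower, and their differences between side means lay between -0.16 and 0.26. Over all 33 measured genes of this list, the mean level was 10.28 in the cerebellum and 9.86 in the bulb. It was 8.57 for the colliculus and 8.81 for the pontine nucleus, so that each side held 1 region with high and 1 with low levels. Hox genes, expressed in the hindbrain, gave a median difference of -1.40 over 11 genes (-0.82 over all 20 measured), yet 1 separated, Hoxc5 by 0.03, since their high levels were in the pontine nucleus and not in the bulb. A side mean can therefore be far from 0 without separation. Of 251 genes whose side means differed by at least 1, 95 overlapped between the sides and 30 had a gap of at least 1.

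**Figure D4:**
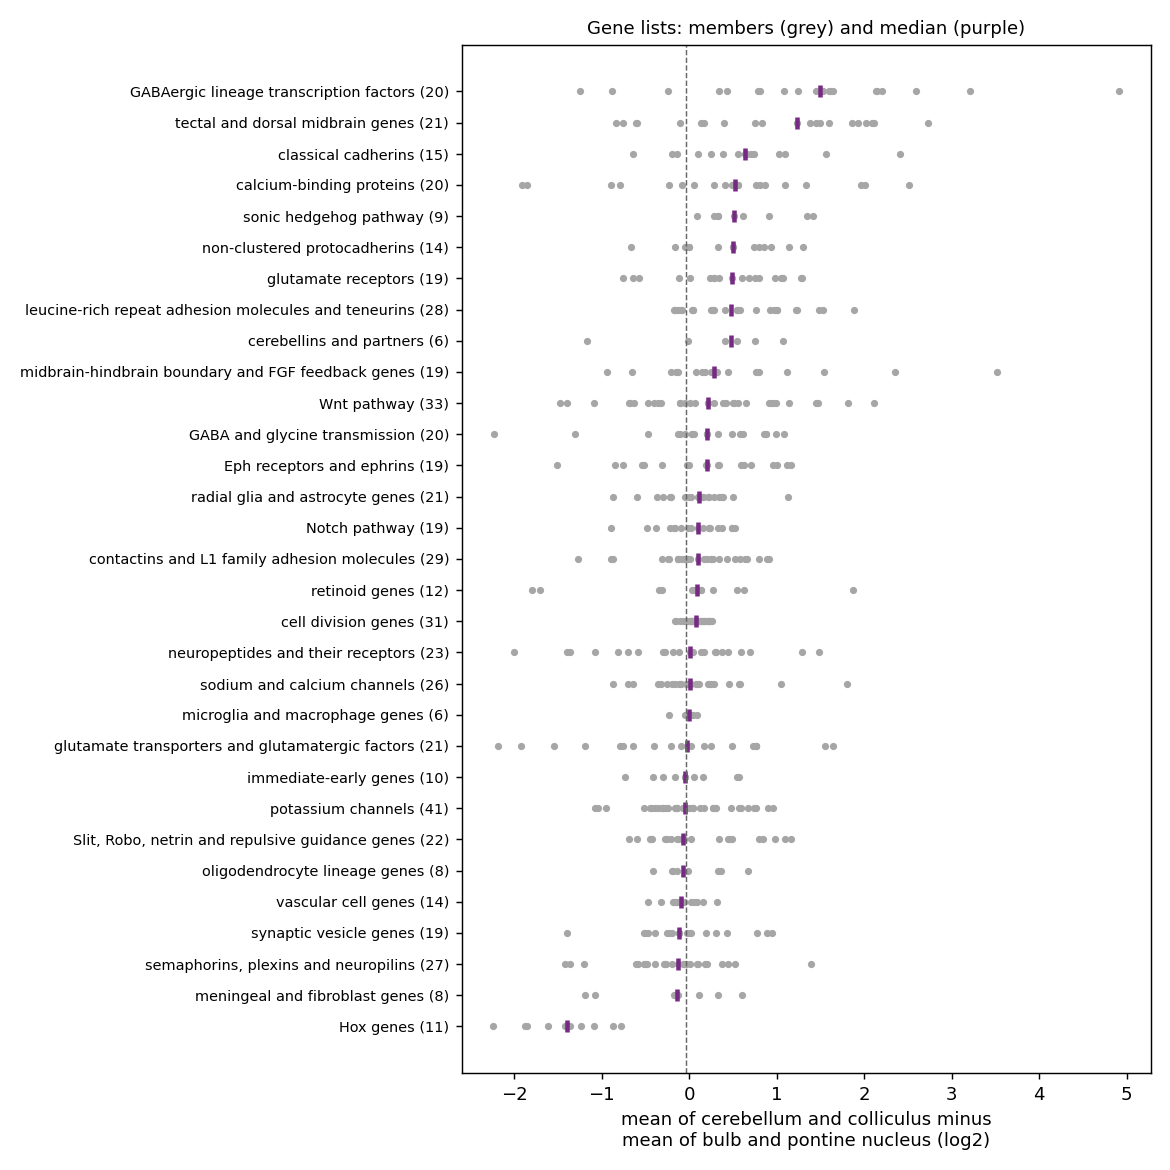
Differences between side means (mean of the cerebellum and colliculus minus mean of the bulb and pontine nucleus, log2, horizontal axis) of the members of each gene list with at least 5 members above the level limit; grey points are genes, purple bars list medians, and the number above the limit is in brackets. The transcription factors of GABAergic lineages, a list without Dlx1, Dlx2, Dlx5 and Sp8, and the tectal genes have medians of 1.49 and 1.24. Over all measured members of these lists the medians are 1.16 and 0.83. Cell division genes stay close to 0, and the dashed line marks the median of all compared genes at -0.03.

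Among 86 adhesion genes in 4 lists, 6 were higher by at least 0.5 (6.98%) and 1 was lower (1.16%), against 0.935% and 0.358% of all genes compared. Of 15 cadherins 6 were higher and 1 lower by any gap, with a median of 0.64 that was 0.32 over all 20 measured. Cdh20 had the widest gap after Cdh9, at 0.55. Of 14 protocadherins, 4 were higher, led by Pcdh17 by 0.40, and Pcdh7 was lower by 0.07. Cntn2 was the only member of the contactin and L1 list to be lower, against 4 higher of 29, of which Cntnap4 had the widest gap at 0.48. Leucine-rich repeat proteins and teneurins had 7 higher and 1 lower of 28. Tenm3, which guides topographic wiring, read 11.75 and 12.70 against 11.00 and 11.01, and the synaptic organisers Lrrtm1 and Lrrtm3 were higher by 0.71 and 0.70.

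Of 68 axon guidance genes in 3 lists, 11 were higher by any gap (16.2%) and 13 lower (19.1%), and 1 in each direction reached 0.5 (1.47%). Of 19 Eph receptor and ephrin genes 5 were higher and 4 lower. The receptor gene Epha3 read 10.12 and 9.11 in the cerebellum and colliculus against 10.95 and 11.29, a gap of 0.83 downwards. Its ligand genes Efna5, Efna1 and Efna3 were lower by 0.48, 0.40 and 0.08, whereas the receptor genes Epha10, Epha4 and Epha8 were higher by 0.43, 0.42 and 0.36. Of the semaphorin list 2 of 27 were higher and 6 lower. The widest gap in it was that of the plexin gene Plxna4, with 11.04 and 11.60 against 10.11 and 9.74. Slit, Robo and netrin genes had 4 higher, led by Rgma by 0.49 and Slit2 by 0.41, and 3 lower of 22.

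Genes of excitability were described by subfamily. Of 19 glutamate receptor genes 8 were higher and 0 lower, with a median of 0.48 that was 0.34 over all 21 measured. Grm7 and Grik4 had the widest gaps at 0.69 and 0.57. Potassium channels had 7 higher and 4 lower of 41. Kcnh5 read 9.36 and 9.68 against 10.47 and 10.66, and Kcna2 was lower by 0.60, while Kcnn3 was higher by 0.50. Among sodium and calcium channels 4 of 26 were higher and 2 lower, and Cacng3 and Cacng2, auxiliary subunits of AMPA receptors, were higher by 0.66 and 0.52. Calcium-binding proteins had 6 higher and 0 lower of 20, led by Necab1 by 0.91 and Pcp4 by 0.90. Pcp4, a calmodulin regulator, read 12.08 and 12.01 against 11.11 and 10.30.

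Among signalling genes, 12 of 33 Wnt pathway members were higher and 4 lower. After Fzd10 came Sfrp2, a secreted Wnt antagonist, by 0.94, Wnt3 by 0.61 and Dkk3 by 0.59, and the lower ones were Wnt7a, Sfrp1, Lgr5 and Sfrp4 by 0.33 or less. In the hedgehog list, 1 of 9 separated, the inhibitor gene Hhip by 0.88. Among retinoid genes the retinal reductase Dhrs3 was higher by 0.88, with 11.19 in the cerebellum and 9.33 in the colliculus. Of 19 Notch pathway genes 2 were higher and 2 lower, none by more than 0.24. Synaptic vesicle genes had 3 higher and 4 lower of 19, and Syt1, the calcium sensor of release, was lower by 0.41.

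Genes of other cell types that the dissections could hold were set beside these results. None of the 14 vascular genes above the limit was higher and 5 were lower, by 0.33 at most, with mean levels over all 19 measured genes from 8.96 in the cerebellum to 9.18 in the bulb. Of 6 microglial genes 1 was lower, by 0.13, and of 2 red blood cell genes and 4 genes of cartilage, bone and muscle 0 separated. Of 8 meningeal genes 1 was higher, by 0.02, and their mean level over 15 measured genes was 8.46 in the bulb and 7.63 to 7.83 elsewhere. Oligodendrocyte lineage genes had 3 higher and 1 lower of 8, none by more than 0.18, and radial glia and astrocyte genes 1 higher, Ednrb by 0.41, and 2 lower of 21. Hopx, a homeodomain-only gene of radial glia, was one of the lower genes, with 8.69 and 8.25 against 9.35 and 9.32, a gap of 0.63. Otx2 is also a gene of the choroid plexus, the tissue that makes cerebrospinal fluid. The choroid plexus genes Ttr, Kl and Clic6 read at most 7.71, 7.49 and 6.89 on any array, and Ttr was highest in the bulb. In the list of choroid plexus and ependymal genes, Calml4 separated by 0.99 below the level limit, with 7.57 and 8.47 against 6.33 and 6.58, and Foxj1 by 0.26. Mean levels over its 11 measured genes, Otx2 included, were 7.77 and 7.95 against 7.32 and 7.24. Otx2 itself adds to that difference, and the median difference between side means over the 11 genes was 0.165. The part of choroid plexus and ependymal cells in the Otx2 difference was not tested.

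Genes with the most similar pattern to each marker were found by the root mean square difference of levels over the 4 arrays, after each gene was centred on its own mean. Otx2 came closest to Tfap2b, at 0.77, followed by Tfap2a, Dmbx1, Necab1 and Sox14 at 1.29 to 1.44. Closest to Cdh9 were Car8, a Purkinje cell gene, at 0.29, and Dhrs3, Ebf2, Skor1 and Hsd11b2 at up to 0.53. Of these, Skor1 separated the sides by only 0.07 and Hsd11b2 overlapped between them. Car8 read 12.09 in the cerebellum and 9.07 in the colliculus against 8.46 and 8.69. Closest to Cntn2 were Sh3bp4, Kcnh5, Gstm7, Arap2 and Edil3, at 0.19 to 0.22, all of which separated as lower by 0.66 to 0.79. With 4 arrays these likenesses are descriptions only.

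Some properties that the rule had not used were listed for the 30 genes. All of the 24 higher genes were found in RefSeq, 23 of them protein-coding and 1 a long noncoding RNA, with a median gene length of 32.0 kb against 25.8 kb for the genes compared. The 6 lower genes had a median length of 96.8 kb. Promoter windows were held for 19 of the 24 and 5 of the 6 genes, and their median GC content was 57.7% and 66.3%, against 61.7% for the genes compared.

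Motifs were searched in these windows, each reading the same on both strands. The AP-2 motif GCCNNNGGC was in 5 of 25 windows of the higher genes (20.0%), in 3 of 6 of the lower genes, and in 25.3% of windows of all genes compared (16.6% of all windows in the table). TAATTA was in 3 of 25 and 0 of 6 windows, against 2.54% of windows of genes compared (5.29% of all). Those 3 windows belonged to Tfap2a and Otx2, and an Otx2 window among them is not printed. The printed Otx2 window holds TAATTA at several places but counts only once. The E-box CANNTG was in 18 of 25 and 5 of 6 windows against 62.9% (72.3% of all), and its form CAGCTG in 6 of 25 and 2 of 6 against 15.4% (16.3% of all). Windows of one gene can overlap, and a match is a run of letters and not a binding site.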

How the data were processed

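RNA of each region was hybridised to 1 array. Per the labels' protocols, Trizol and RNeasy columns were used for RNA, and sense-strand cDNA was labelled with Ambion and Affymetrix kits. The submitters' processing notes name Affymetrix Expression Console. Its version, algorithm and scaling, like the build, are not given in these sources. The deposited table gave the authors' values per probe set to 2 decimals, taken as log2 from their range of 2.43 to 14.57, and column medians lay between 8.07 and 8.13. Scaling by the authors could remove general differences between regions.

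Of 35556 probe sets, 21789 had 1 symbol in the 2016 array annotation, 1621 several and 12146 no entry. Among 19938 genes, 19855 were found in RefSeq (GRCm38.p6) by Entrez ID. For 999 genes with several probe sets, the one with the highest mean was used. The members, lists, size rules and alternatives were chosen with earlier results of these data known. Named were the 15 widest gaps in each direction, up to 4 per list and direction, the markers and their 5 nearest genes; other names, among them the rest of the 24, were chosen after their values were seen. Gaps were computed with Python 3.11.15, NumPy 2.4.6 and pandas 2.3.3, and the code was tested on simulated data. Alternatives were other level limits, size rules, scalings and probe set summaries. No test was made. The number of arrays limits the precision.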

Additional observations from a re-analysis of the deposited data

How the results depend on the processing

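The counts of 24 higher and 6 lower genes moved by over 1.5 times only with another size rule. They were 102 and 39 at 0.5 log2 units, 4 and 0 at 2, and 165 and 86 for a difference of side means of at least 1. With no level limit all 30 genes were kept, and with the limit at the 75th percentile 23 of them, since the others did not pass it. Quantile normalization kept all 30 and added Mab21l1 and Nr2f2. Centring each column on its median lost Gprin3, at 0.98, and added Mab21l1 and Sv2b, at -1.02. Averaging probe sets lost Hmcn1, at -0.97. In alternatives chosen after seeing the data, the counts at any gap were 1179 higher and 1274 lower after quantile normalization, so that higher genes made up 48.1% of the separating genes against 36.3% as deposited, and 924 and 1465 after centring. Of 112 genes named with a gap, 0 changed direction under quantile normalization, centring or the averaging of probe sets, and Gabrb2, at 0.03, no longer separated after centring. List medians moved by over 0.1 in 25 of the list and setting pairs, all with another level limit, and 147 moved less.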

Other observations

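Probe sets outside the named genes held a few more separations. Of 12146 probe sets with no entry in the annotation, 2 were higher in the cerebellum and colliculus by at least 1 and 5 were lower. Probe set 10466886 read 9.28 and 9.37 in the cerebellum and colliculus against 7.30 and 7.48 in the bulb and pontine nucleus, and probe set 10538732 read 11.58 and 10.78 against 8.38 and 9.40. The 5 lower ones had levels of at most 6.70 on every array, under the level limit. Of 1621 probe sets with several symbols, 1 was higher by 1.44 (probe set 10481349) and 0 were lower.

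Genes with gaps between 0.5 and 1 held further receptors and matrix proteins, picked here after their values were seen. The reelin receptor gene Vldlr and the reelin adaptor gene Dab1 were both higher in the cerebellum and colliculus, Dab1 at 11.83 and 11.84 against 11.26 and 10.64 and Vldlr at 10.78 and 10.84 against 10.27 and 10.28. The growth factor receptor gene Egfr read 10.72 and 10.15 against 9.17 and 9.44. The basement membrane gene Nid1 read 12.16 and 10.69 against 10.18 and 9.65. Among the lower genes, the zinc finger gene Bcl11a read 11.92 and 12.02 against 12.64 and 13.00, and Zbtb20 10.76 and 10.80 against 11.59 and 11.65. Of the 78 higher genes in this range, 47 had a gap wider than both differences within a side, as had 23 of the 33 lower ones. At any gap these counts were 225 of 930 and 396 of 1629, and choosing genes by gap raises them.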
